A study of Caenorhabditis elegans with 2 samples.

Results

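The genes daf-12, lin-14, lin-66 and puf-9 are 4 of the 19973 protein-coding genes annotated on the Caenorhabditis elegans chromosomes, and 4 of 23 genes counted here as the core of the heterochronic pathway. The genes were chosen by the pooled peak lists of the same data, in which earlier results had placed thresholded peaks of the zinc finger protein KLU-1 at or near them, so those peaks are described here with no test. For each gene, every peak was taken whose summit, the position of highest signal, lay from 5 kb upstream of the first annotated start to the gene end. These windows held 119 of the 128328 peaks in the authors' ranked list from both replicates, and 5 of the 1043 peaks that the authors kept after thresholding, a set that makes up 0.813% of the ranked list. By this rule 3 of the 4 genes had a thresholded summit (lin-14, lin-66 and puf-9), and daf-12 had none. Over all protein-coding genes the same window rule found a thresholded summit for 8.35%, and since peaks had chosen the genes, nothing is read from the higher share among the 4. The thresholded peak that had been assigned to daf-12 lay past the end of the gene, inside a tRNA gene, and is described apart from the others.

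Heterochronic genes set the order in which larval cells adopt stage-specific fates, so that each division pattern is used at its own larval stage. LIN-14 and HBL-1 act early and are lowered in turn by the microRNAs lin-4 and those of the let-7 family. LIN-28, a further early factor, is likewise a target of lin-4. At the end of larval life LIN-29 drives the switch to adult epidermis. The steroid receptor DAF-12 ties this timer to food and growth conditions, and many of the steps act on the 3′ UTRs of messenger RNAs rather than on transcription.

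The data were chromatin immunoprecipitation and sequencing peaks from whole L4 larvae at 47 h, grown from embryos that had been released by bleaching and held as starved L1 larvae. There was 1 group with 2 biological replicates. All animals were of strain RW12326, in which CRISPR had placed a TY1, EGFP and 3xFLAG tag at klu-1 (ZK337.2, allele st12326), so the tagged protein came from the klu-1 locus and no library from untagged animals was analysed here. Chromatin was sheared by sonication and recovered with an antibody against GFP. Since whole animals were used, a peak in a few cells cannot be told apart from a weak peak in many, and no tissue can be named. The depth of each replicate is unknown, as only peak lists were analysed here. Each peak has a signal, the strength given by the authors on a scale that the sources used here do not state, and a −log10 of the irreproducible discovery rate (IDR), in which higher values mean closer agreement between the lists compared. Thresholded peaks had values of at least 2.00, which is an IDR of 0.01.

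Most peaks in the windows had signals near the bulk of the ranked list. The median signal was 20.6 over all ranked peaks and 78.8 over the thresholded ones, and 23.4 over the 119 peaks in the 4 windows. Of the 119, 78 lay above the median of the ranked list. The 5 thresholded summits had signals of 81.7, 69.0, 53.9, 51.1 and 11.7, so 4 of the 5 were below the median thresholded peak. They lay in 1 promoter (the stretch between 500 bp before and 100 bp after any transcript start), 2 coding exons, 1 noncoding exon and 1 intron. No tRNA, snRNA, snoRNA or miRNA gene was found within 200 bp of any of the 5.

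**Figure D1:**
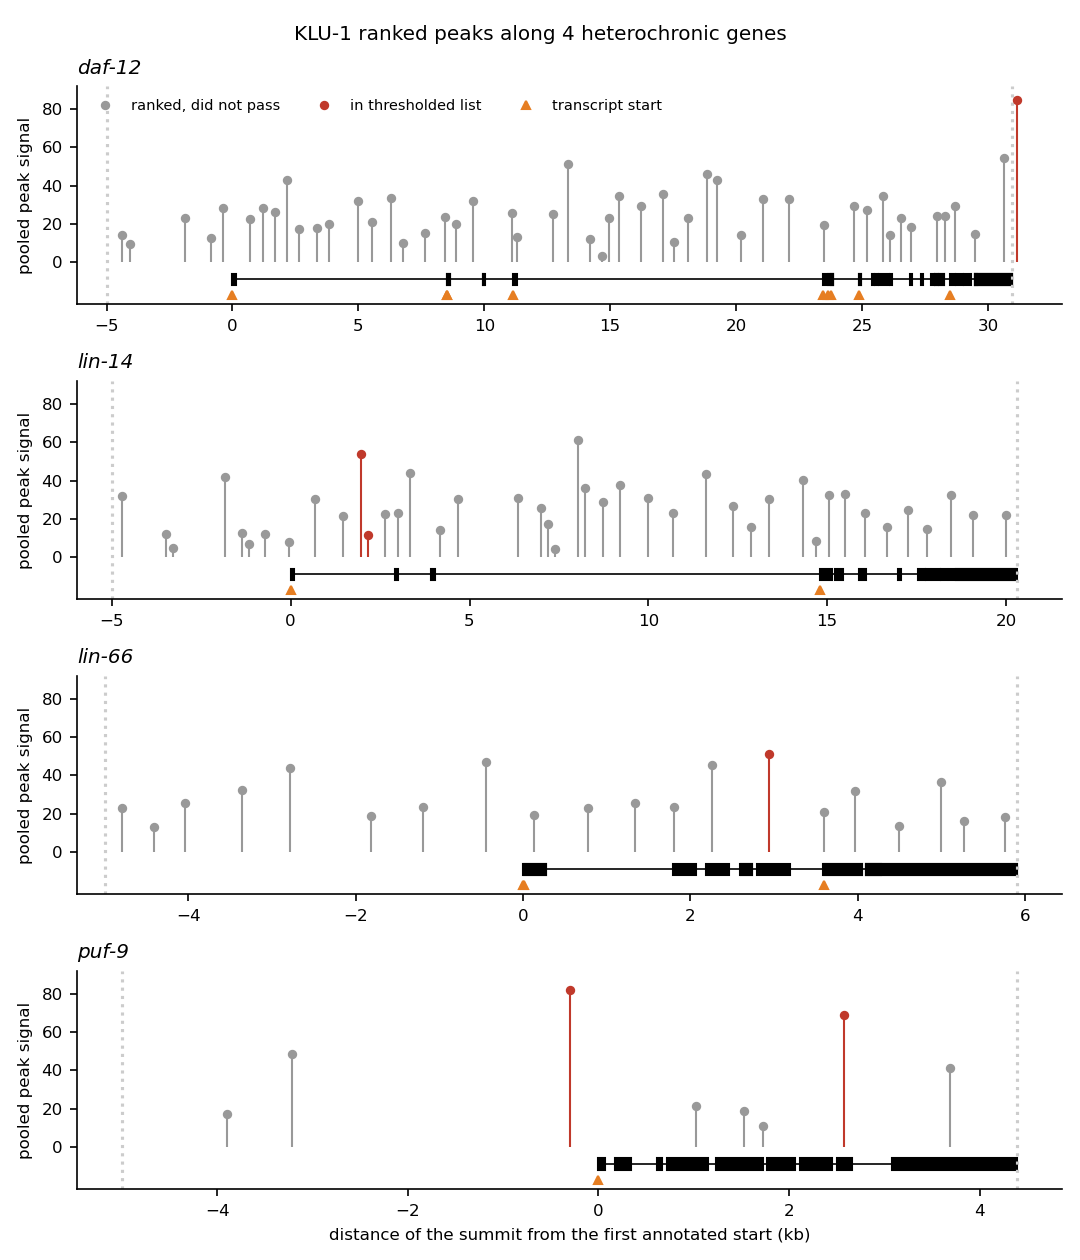
Signal of every pooled ranked peak (y axis, the authors' scale) against the distance of its summit from the first annotated start of each gene (x axis, kb). Red stems are thresholded peaks, grey stems are ranked peaks that did not pass, dotted lines mark the window, black boxes exons and triangles transcript starts. Red stems stand inside the windows of lin-14, lin-66 and puf-9, and the red stem of daf-12, with a signal of 84.6, stands just past its window.

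The gene puf-9 had the strongest peaks of the 4. It encodes a Pumilio family RNA-binding protein that is needed for repression of hbl-1 through its 3′ UTR, and it acts with the let-7 family. The gene (WBGene00004245, W06B11.2) lies on the plus strand at X:5841592-5845987 in WBcel235 and has 1 annotated start. Its window of 9.40 kb held 8 ranked peaks, 0.851 per kb against a median of 1.35 per kb over all protein-coding genes. The authors' conservative ranked list held 16 in the same window. Both thresholded puf-9 peaks were also in the conservative thresholded list, where 7.84% of protein-coding genes had a summit. At least 2 thresholded summits were found in the window of 0.946% of all protein-coding genes, and puf-9 and lin-14 had 2 each. As peaks had chosen both genes, nothing is read from these shares.

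The upstream peak of puf-9 (X:5841176-5841415) had its summit at 5841296, 296 bp before the transcript start. Its pooled signal was 81.7, which ranked 480 of 1043 thresholded peaks, with a −log10 IDR of 2.66. Replicate 1 gave 51.4 at a summit 6 bp to the left, and replicate 2 gave 29.3 at a summit 35 bp to the right. Replicate 1 was the higher, and the peak ranked 381 in its ranked list and 2918 in that of replicate 2. It was in the thresholded list of replicate 1, at rank 330 of 566, and not in that of replicate 2. In those lists 4.81% and 3.34% of protein-coding genes had a summit in their window. The summit also lay inside 2 annotated noncoding RNA genes on opposite strands, W06B11.7 (X:5841170-5841350) and W06B11.9 (X:5841185-5841361), of which W06B11.9 runs in the direction of puf-9.

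The other puf-9 peak (X:5844050-5844289) had its summit at 5844170, in a coding exon 2578 bp past the start. Its pooled signal was 69.0, rank 682 of 1043, with a −log10 IDR of 2.32. The replicates gave 33.7 and 34.4, with summits 10 bp to the right and 46 bp to the left of the pooled one. The 2 replicates were close in signal here, and neither had this peak in its own thresholded list. The windows of 101 bases centred on both summits are shown because they are the member sites in the conservative list, on the plus strand of X:5841246-5841346 and X:5844120-5844220, with matches to CACCC or GTGGG on either strand in capitals.
puf-9 upstream: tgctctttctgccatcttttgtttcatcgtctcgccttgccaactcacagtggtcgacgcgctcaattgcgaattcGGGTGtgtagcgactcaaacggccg
puf-9 coding exon: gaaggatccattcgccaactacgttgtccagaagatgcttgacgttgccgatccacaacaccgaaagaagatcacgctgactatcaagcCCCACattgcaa
The match in the upstream window is CACCC on the minus strand, 26 to 30 bp right of the summit, and in the exon window it is GTGGG on the minus strand, 39 to 43 bp right of the summit. The GC content was 53.5% and 49.5%, against a median of 49.5% over thresholded summits and 39.6% over the 119 ranked summits of the 4 genes.

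Beside these the puf-9 window held 1 further peak with a signal above 45, at 48.5, whose summit lay 3215 bp upstream of puf-9 inside a coding exon of the neighbouring gene dct-11. Replicate 2 gave 33.1 there and replicate 1 had no matching peak, and the −log10 IDR was 1.16. A peak of 41.0 lay in the 3′ UTR exon, with 18.3 in replicate 1 and no match in replicate 2. The remaining 4 peaks had signals from 10.8 to 21.4.

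The gene lin-14 encodes a nuclear protein of early larval stages and was the first known target of the microRNA lin-4, which acts on its 3′ UTR. It (WBGene00003003, T25C12.1) spans 20.3 kb on the plus strand at X:11465560-11485871, with 2 annotated starts, and its first introns are long. The window of 25.3 kb was longer than that of 99.1% of protein-coding genes and held 42 ranked peaks, of which 24 lay in introns. Both thresholded peaks lay close together in the first intron of the long transcript T25C12.1a.1, and neither was in the conservative thresholded list. Their summits were 206 bp apart and the peaks shared 34 bp.

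The stronger lin-14 peak (X:11467398-11467637) had its summit at 11467518, 1958 bp past the start of T25C12.1a.1 and 12843 bp before that of T25C12.1b.1. The summit lay in the exon of T25C12.7, an annotated noncoding RNA gene on the opposite strand (X:11467176-11467530). The pooled signal was 53.9, rank 999 of 1043, with a −log10 IDR of 2.16. Replicate 2 gave 33.1 with its summit 5 bp to the left, and this was the highest replicate 2 signal in the lin-14 window. Replicate 1 had no peak that overlapped by at least 50% of the shorter one. Its nearest peak, with a signal of 24.8, overlapped by 79 bp or 35.3% and had its summit 153 bp to the right, between the 2 pooled summits.

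The second lin-14 peak (X:11467604-11467843) had its summit at 11467724, 2164 bp past the same start. Its pooled signal of 11.7 was below that of the nearest replicate 1 peak. Only 6 thresholded peaks were weaker, and 81.5% of all ranked peaks were at or above its rank of 104592. Replicate 1 gave 24.8 with a summit 53 bp to the left, from the same replicate 1 peak that partly overlapped the stronger pooled peak. Replicate 2 gave 2.66, which ranked 94650 of 95500. The replicates thus differed at both lin-14 peaks, and the −log10 IDR of the weaker peak, 2.16, and its score of 898 were the same as those of the stronger one to the digits given. Over the 1003 thresholded peaks matched in both ranked lists, the sum of the replicate signals was 1.00 times the pooled signal at the median, with 5th and 95th percentiles of 0.920 and 1.10, and at this peak the pooled signal was lower than that of replicate 1 alone.

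The windows of 101 bases around both lin-14 summits, on the plus strand of X:11467468-11467568 and X:11467674-11467774, show the pair of neighbouring sites. Capitals mark matches to CACCC and GTGGG in the stronger and to GAGAG in the weaker, on either strand.
lin-14 stronger: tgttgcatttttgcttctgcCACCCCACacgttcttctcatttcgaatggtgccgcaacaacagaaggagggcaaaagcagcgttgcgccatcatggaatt
lin-14 weaker: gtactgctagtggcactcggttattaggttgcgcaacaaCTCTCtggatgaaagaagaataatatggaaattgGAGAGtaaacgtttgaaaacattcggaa
In the stronger window CACCC on the plus strand and GTGGG on the minus strand overlap, 30 to 26 bp and 27 to 23 bp left of the summit. In the weaker window GAGAG lies on the minus strand 11 to 7 bp left of the summit and on the plus strand 23 to 27 bp right of it. The GC content was 49.5% at the stronger and 39.6% at the weaker summit.

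The strongest ranked peak in the lin-14 window did not pass. Its summit lay in an intron 8031 bp past the first start (11473591), with a pooled signal of 60.9 and a −log10 IDR of 1.71. Replicate 1 gave 30.6, its highest value in the window. In replicate 2 a peak overlapped the pooled one, but by too little to count as a match. The pooled peak ranked 1156 in the ranked list. Among all ranked peaks with a signal of at least 60, 294 were outside the thresholded list, counted without regard to replicate matches. Other lin-14 peaks that did not pass included an intronic one at 11604 bp (signal 43.3, with 17.5 and 27.8 in replicates 1 and 2) and one 478 bp before the start of T25C12.1b.1 (signal 40.1, with 18.1 and 24.2). The promoter of the long transcript had a single peak, 55 bp upstream, with a signal of 7.97 and no match in either replicate. A replicate 2 peak overlapped this promoter peak, but by too little to count as a match. The 2 snoRNA genes in the lin-14 window, T25C12.11 and T25C12.12, lay near its 3′ end, and a ranked peak with a signal of 22.2 lay 29 bp from T25C12.11 and did not pass.

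The gene lin-66 acts early in the pathway, in the lowering of lin-28 through its 3′ UTR. It (WBGene00001562, B0513.1) lies on the plus strand at IV:13888079-13893986 with 3 annotated starts, of which that of the short transcript B0513.1b.1 lies within the gene. The window of 10.9 kb held 20 ranked peaks, 1.83 per kb. A single peak was in the thresholded list and it was absent from the conservative one. It (IV:13890897-13891136) had its summit at 13891017 in a coding exon of the long transcripts, 2938 and 2928 bp past their starts and 658 bp before the start of B0513.1b.1. The pooled signal was 51.1, rank 1019 of 1043, and the −log10 IDR of 2.03 was close to the threshold.

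Replicate 1 gave 24.6 for this lin-66 peak with a summit 65 bp to the right, and replicate 2 gave 28.8 with a summit 2 bp to the left. Both values were close to each other, and neither reached the thresholded list of its replicate. The window of 101 bases on the plus strand of IV:13890967-13891067 is shown because it held none of the 6 motifs searched, although its GC content of 54.5% was above the median of thresholded summits.
lin-66 coding exon: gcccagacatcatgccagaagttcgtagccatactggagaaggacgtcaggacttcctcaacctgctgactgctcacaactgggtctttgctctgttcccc
The next lin-66 peaks had similar pooled signals and did not pass. A peak 442 bp upstream of the first start had a signal of 47.0, with 27.6 in replicate 2 and no match in replicate 1, and its −log10 IDR was 0.330. A coding exon peak at 2262 bp had a signal of 45.7, with 27.7 in replicate 2, and a −log10 IDR of 1.11. In replicate 1 a peak overlapped it, but by less than 50% of the shorter one. The window also held 17 annotated piRNA genes, and one protein-coding neighbour, thoc-7.

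The gene daf-12 encodes the nuclear hormone receptor that binds dafachronic acids and, with or without them, directs reproductive growth or dauer arrest. It (WBGene00000908, F11A1.3) spans 31.0 kb on the plus strand at X:10635908-10666875 with 9 distinct starts among 10 transcripts. Its window of 35.97 kb, longer than that of 99.7% of protein-coding genes, held 49 ranked peaks (1.36 per kb), 31 of them in introns. None was thresholded in the pooled, the conservative or either replicate's list. Of genes with a window of at least 20 kb, 19.8% had a pooled thresholded summit, against 8.11% of those with a shorter one.

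The strongest peaks inside daf-12 fell short of the threshold. The highest, in the 3′ UTR exon 341 bp before the gene end, had a pooled signal of 54.2 and a −log10 IDR of 1.42, with 19.6 in replicate 1 and 34.0 in replicate 2. An intronic peak 2184 bp past the start of F11A1.3e.4 had a signal of 51.5 and a −log10 IDR of 1.32, with 20.3 and 27.2 in replicates 1 and 2. A peak of 46.3 lay in the noncoding RNA gene F11A1.13, with 30.6 in replicate 1 and 12.7 in replicate 2, and a −log10 IDR of 0.760. Replicate 2 was the higher at the first and second of these peaks and replicate 1 at the other. Promoter windows of daf-12 transcripts held 6 ranked peaks with signals from 19.6 to 29.6, none of which passed.

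The thresholded peak nearest to a daf-12 start lay outside the gene (X:10666952-10667191). Its summit at 10667072 was 197 bp past the gene end, 31164 bp past the first start and 2666 bp past the last one, that of F11A1.3c.1. The pooled signal was 84.6, rank 435 of 1043, and the peak was also in the conservative list. Replicate 1 gave 47.8, rank 387 in its thresholded list, and replicate 2 gave 35.3, rank 1129 in its ranked list and outside its thresholded list. The summit lay within F11A1.t2 (WBGene00014321), a tRNA-Glu gene of 72 bp on the minus strand at X:10667022-10667093, which begins 147 bp past the end of daf-12. It also lay within F11A1.11, an annotated noncoding RNA gene on the plus strand, the strand of daf-12 (X:10667012-10667102). A further tRNA-Glu gene, F11A1.t1, lies 718 bp past the end of daf-12, and the next protein-coding gene, F13E6.2, 1287 bp past it. Of all thresholded peaks, 20.4% lay within 200 bp of a tRNA gene, so whether this peak concerns daf-12, the tRNA genes or neither cannot be told apart here. The window of 101 bases on the plus strand of X:10667022-10667122 is shown because its first 72 bases are the tRNA gene, with the overlapping GTGGG and, on the minus strand, CACCC in capitals.
daf-12 downstream: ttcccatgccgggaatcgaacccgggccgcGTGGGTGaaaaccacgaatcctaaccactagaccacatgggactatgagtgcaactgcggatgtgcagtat

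**Figure D2:**
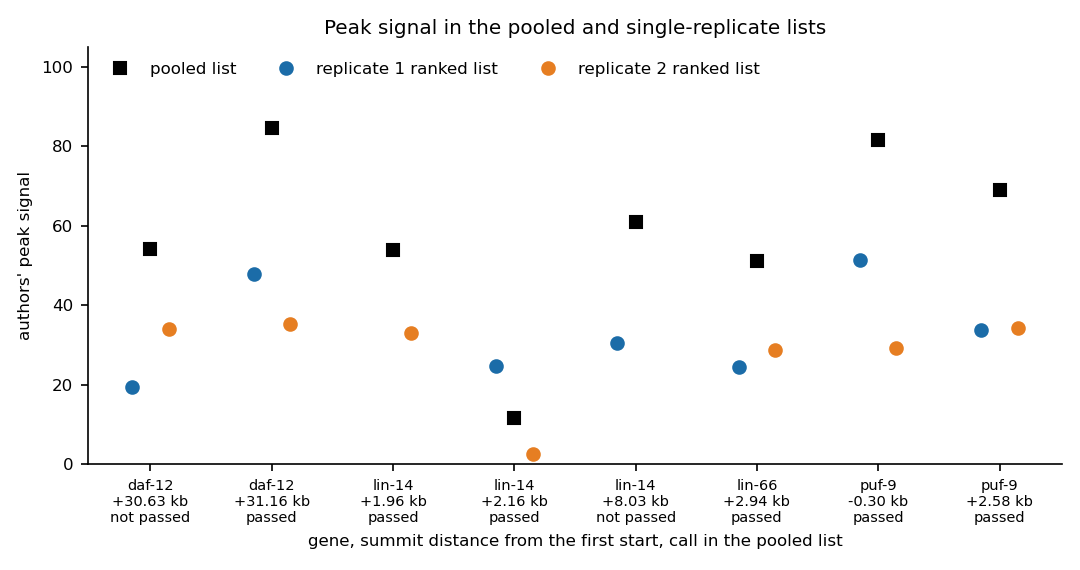
Signal (y axis, the authors' scale) of 8 peaks named in the text, in the pooled list (squares) and in the ranked lists of replicates 1 and 2 (blue and orange circles); a missing circle means no peak that overlapped by at least 50%. Replicate values are similar for lin-66 and the exon peak of puf-9, replicate 1 is higher upstream of puf-9 (51.4 against 29.3), and the pooled value at the weaker lin-14 peak (11.7) lies below that of replicate 1 (24.8).

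None of the 5 thresholded peaks in the 4 windows was in the thresholded lists of both replicates, against 27.9% of all thresholded peaks, and 4 of the 5 were in neither, against 41.9%. In the ranked lists, 4 of the 5 were matched in both replicates, against 96.2% of all thresholded peaks. Of the 119 ranked peaks, 39 (32.8%) were matched in both replicates and 25 (21.0%) in neither, against 26.2% and 23.2% of the whole ranked list. The replicates also put their highest signal at different places in each of the 4 genes. How often this holds over all protein-coding genes was not counted, so it is not read as a trait of these genes. In daf-12 the highest replicate 1 peak lay at 18834 bp past the first start and the highest replicate 2 peak at 30643 bp. In lin-14 these lay at 8060 and 1953 bp, and in lin-66 at 3949 and 2936 bp. In puf-9 the highest replicate 1 peak was the upstream one, 302 bp before the start, and the highest replicate 2 peak was the exon one, at 2532 bp.

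**Figure D3:**
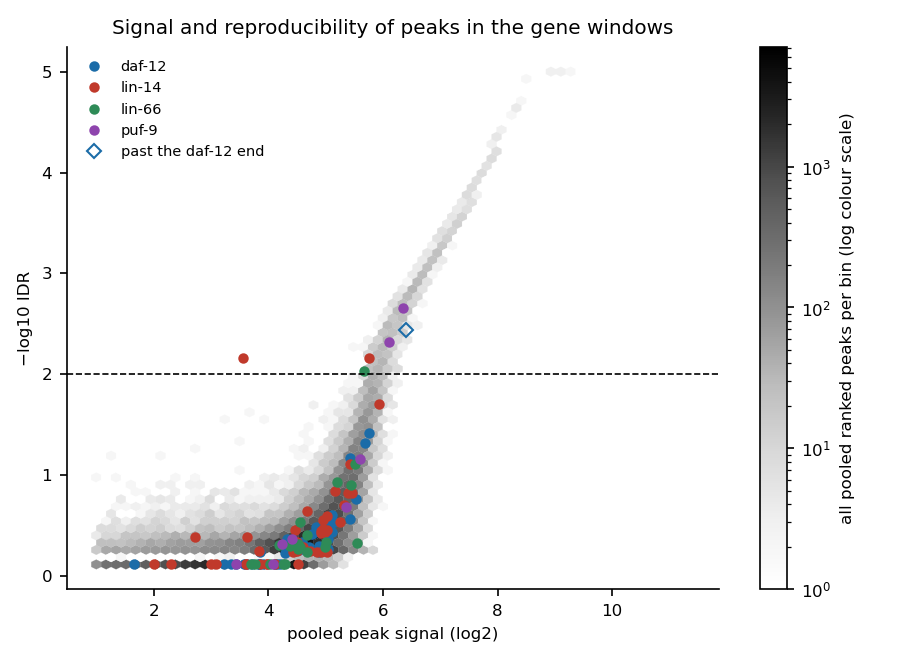
Reproducibility (y axis, −log10 IDR) against pooled signal (x axis, log2 of the authors' signal) for all ranked peaks as grey bins and for the ranked peaks of the 4 windows as coloured points. The dashed line marks a −log10 IDR of 2, and the diamond is the tRNA peak past daf-12. Most of the coloured points lie within the grey cloud below the line, and the weaker lin-14 peak stands apart from it at a low signal (11.7) and a −log10 IDR of 2.16.

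Ordered by their strongest ranked peak inside the window, the genes ran from puf-9 (81.7) through lin-14 (60.9) and daf-12 (54.2) to lin-66 (51.1). The strongest pooled peak exceeded that of 95.3% of protein-coding genes for puf-9, 91.0% for lin-14, 86.5% for daf-12 and 83.1% for lin-66, and the median over all genes was 39.1. The genes had been chosen by their pooled peaks, so nothing is read from these shares. Longer windows also hold more peaks to choose the highest from, and the lin-14 and daf-12 windows were among the longest. In replicate 1 the highest signals were 51.4 in puf-9, 31.1 in lin-66, 30.6 in lin-14 and 30.6 in daf-12, and in replicate 2 they were 34.4, 28.8, 33.1 and 34.0 in the same order. The last 3 genes were within 0.5 of each other in replicate 1 and puf-9 stood above them, whereas in replicate 2 puf-9 and daf-12 were within 0.5 of each other. The order below puf-9 therefore did not hold between replicates.

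The thresholded peaks most like each gene's strongest one were found by the Euclidean distance of log2 signals in the pooled and both replicate lists, over the 1003 peaks matched in both. The upstream puf-9 peak was closest to those nearest to enu-3.3 (distance 0.0151, with a pooled signal of 81.3 and 51.9 and 29.4 in the replicates) and pqn-41 (0.0524). The lin-66 peak was closest to those of madd-3 (0.0504) and Y48G9A.9 (0.0700), and the tRNA peak past daf-12 to those of app-1 (0.0372) and twk-21 (0.0523). For lin-14 no distance could be given, because replicate 1 had no match.

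Sequence near the summits differed among the genes. Of the 5 thresholded windows, from 50 bp left to 50 bp right of a summit and read on both strands, 2 held the motif GTGGG and 2 held CACCC, which can overlap and did so in the stronger lin-14 window. GAGAG was in 1 of them. The GATA factor letters GATAA were in none, and the same was true of the E-box CACGTG and of the TATA box letters TATAAA. Over all thresholded summits GTGGG occurred in 20.5%, CACCC in 15.4% and GAGAG in 32.9%, and over ranked summits that had not passed in 9.45%, 8.05% and 14.8%. Among the 119 ranked summits of the 4 genes the shares were 10.9%, 10.1% and 29.4%. For the GATA letters, the E-box and the TATA letters, in that order, the shares were 13.9%, 2.30% and 5.18% of thresholded summits, 19.0%, 2.16% and 8.27% of those not passed, and 18.5%, 0.840% and 11.8% in the 4 genes. These are matches of letters in windows of equal length, not sites, and with 5 windows a share of them is not informative.

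Other genes of the pathway were taken from lists by role. The lists were drawn up with earlier results of these data known, so the shares are a description. Among the 23 core heterochronic genes 4 had a thresholded summit in their window, the 3 described above and nhl-2, so 1 of 19 genes outside the 4 did. Without the 4, 5 of 49 distinct genes of all lists did (10.2%), close to the 8.35% over all protein-coding genes. The gene nhl-2, which encodes a TRIM-NHL cofactor of microRNA complexes, had its peak 827 bp upstream (III:4899912, signal 122, rank 196), with 76.0 in replicate 1 and 48.3 in replicate 2, and the nearest protein-coding start was that of tag-340.

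Of 8 microRNA machinery genes 2 had such a summit. That in the window of xrn-2, which encodes an exonuclease of microRNA turnover, was the strongest of any listed gene (signal 247, rank 29, with 148 and 94.3 in the replicates) and was in the thresholded lists of both. It lay 1218 bp upstream of xrn-2 and 177 bp upstream of Y48B6A.1. The peak in the window of drsh-1, which encodes the Drosha nuclease, had a signal of 116 (74.7 and 45.1 in the replicates) and lay 2968 bp upstream of drsh-1 but 33 bp upstream of cox-5B.

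Among the 5 heterochronic microRNA genes mir-84, a let-7 family member, had a thresholded summit 2324 bp upstream (signal 59.7, rank 919, with 20.6 and 39.5 in the replicates), and over all annotated microRNA genes the share with a thresholded summit was 10.7%. Of 8 genes of the DAF-12 hormone pathway, din-1, which encodes a corepressor of DAF-12, had one 1637 bp upstream (signal 58.0, rank 946). It lay within the snoRNA gene ZK20.9, with 22.8 in replicate 1 and 43.0 in replicate 2, and was in the thresholded list of replicate 2 alone. In the PUF family puf-9, which was chosen by its peaks, was the only one of 10 genes found with a thresholded summit. Of the 9 others 0 had one, where the share over all protein-coding genes was 8.35%. The strongest ranked peaks of these others ran from 29.6 to 42.9.

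Other well-known genes of the pathway had ranked peaks that did not pass. In the hbl-1 window, whose end is 13837 bp before the start of puf-9, the strongest lay 1873 bp upstream with a signal of 57.3 (28.1 and 28.2 in the replicates, −log10 IDR 1.09). The strongest signals were 50.8 for lin-4 at 361 bp upstream, 44.1 for let-7 and 43.7 for a peak shared by mir-48 and mir-241. For lin-29, lin-42, lin-28 and lin-41 they were 45.0, 41.2, 38.0 and 33.1, and lin-41 and lin-28 were below the 39.1 that was the median over all genes. In the hormone pathway daf-9, which encodes the cytochrome P450 that completes dafachronic acid, had a strongest peak of 34.7, and daf-36 had no ranked summit in its window. Median strongest signals were 49.97 over the core genes, 51.7 over the microRNA machinery, 44.1 over the microRNA genes, 40.6 over the hormone pathway and 36.1 over the PUF genes.

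**Figure D4:**
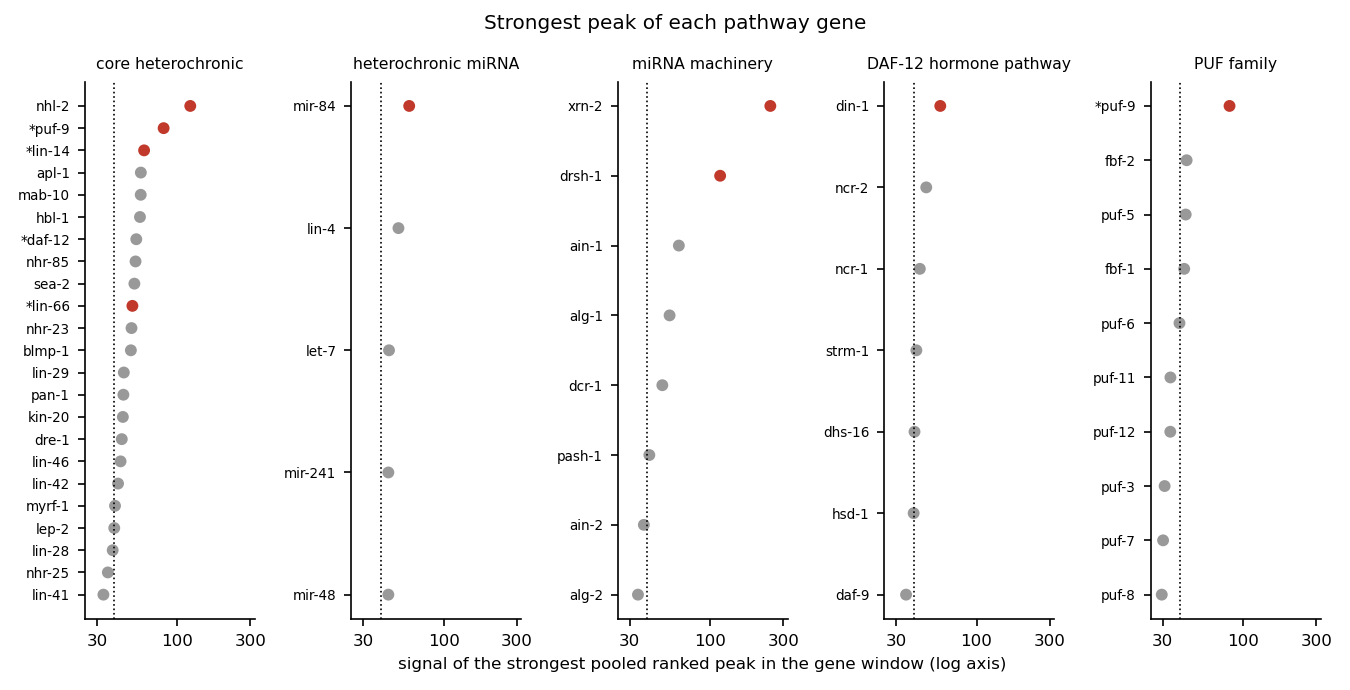
Signal of the strongest pooled ranked peak in the window of each listed gene (x axis, the authors' scale on a log axis), by list. Red points are genes with any thresholded summit in the window, which for lin-14 is not its strongest peak, grey points are genes with none, asterisks mark the 4 genes and the dotted line is the median over all protein-coding genes (39.1); xrn-2 (247), nhl-2 (122) and drsh-1 (116) lie above puf-9 (81.7), and daf-36 is not drawn because it had no ranked summit.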

How the data were processed

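Peaks were described in 8 lists on assembly ce11: a ranked and a thresholded list from both replicates together, a conservative pair, and a ranked and a thresholded list of each replicate. Each peak's signal, its score computed from the IDR and the distance of its summit from the peak start are the authors' deposited values, and the deposited ranked lists add the −log10 of the IDR. Not given in the sources used here are the scale of the signal, the aligner and the peak caller. Signals of separately called lists were set side by side without rescaling. The pooled ranked lists each have 8 more columns, which name no sample and were left aside. Of the peaks past an IDR of 0.01, 97 were outside the authors' thresholded list and were left out of the motif shares of peaks that had not passed.

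Coordinates were used as given, with genes from Ensembl release 115 (WBcel235), sequences from the RefSeq genome of that build, and tRNA products and the name of let-7 from RefSeq. Peaks ended within the chromosome lengths. A replicate peak matched a pooled one if it overlapped at least 50% of the shorter peak. A summit was classed as promoter first, then by the kind of exon it lay in, then as intron or intergenic. Of the PUF genes listed, puf-4 was not found among the protein-coding genes. With 1 group and members chosen by their peaks, no test was run. The members and gene lists were chosen with earlier results of these data known. Genes named were the 4, listed genes with a thresholded summit, the strongest ranked peaks of 7 further pathway genes and of lists without a summit, and for each member the 2 genes with the most similar peaks; mir-48, mir-241, daf-9 and daf-36 were named after their values were seen. Alternatives were other windows, lists, overlaps and promoter definitions. The window, matching and nearest-start steps, run with Python 3.11.15, pandas 2.3.3, numpy 2.4.6 and matplotlib 3.10.9, were tested on planted data.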

Additional observations from a re-analysis of the deposited data

How the results depend on the processing

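The 3 genes and 5 thresholded summits were also found with windows from 2 or 10 kb upstream and with any overlap of a peak with the window. In the conservative list, 1 gene with 2 of the 5 summits (puf-9) was left. Of all thresholded peaks, 79.5% were in that list with the same start, end and summit. The cause of the smaller number was not tested. In the upper part of the list by signal 1 gene with 1 summit was left, fewer peaks being in it by construction. With a single replicate's list the genes numbered 0 to 1 and the summits 0 to 1. Of the 23 core heterochronic genes 4 had a summit, and the share over all protein-coding genes was 8.35%. These 4 include the 3 genes chosen by their peaks, and of the 19 core genes outside the members 1 had a summit. Core genes were counted with the members under the other settings too, so nothing is read from these counts beside the shares. The counts and shares were 2 and 7.84% in the conservative list, 2 and 4.64% in the upper part, 0 and 3.34% in the list of replicate 2 alone, 2 and 4.81% in that of replicate 1, 5 and 12.3% with a window from 10 kb upstream, 4 and 5.60% from 2 kb, and 4 and 4.76% by the nearest start. With a window to 1 kb past the gene end, chosen after seeing the data, or by the nearest protein-coding start, 4 genes and 6 summits were found, since both bring in the tRNA peak past daf-12. Peaks matched in both replicates went from 0 to 4 when the ranked lists replaced the thresholded ones, which are shorter. Of the 5 summits, 0 lay within 200 bp upstream of a start by a narrower promoter definition and 2 by one of 1000 bp upstream, where the lin-66 peak joins that of puf-9. GTGGG lay within 25 bp of 0 summits and within 50 or 100 bp of 2. No paired analysis was possible because there is 1 group. Read counts, an input library and untagged animals were not analysed here, so weak signals cannot be set against a background, and with 2 replicates no spread beyond the pair of values can be given.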
